A study of Mus musculus with 9 samples.

Results

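The MHC class I presentation genes are 10 genes whose products cut, carry, load or display peptides on the cell surface: H2-K1, H2-D1, B2m, Tap1, Tap2, Tapbp, Nlrc5, Psmb8, Psmb9 and Psmb10. They were chosen by name, and their rows were found for 10 of 10 names among the 54453 gene rows of the table. Messenger RNA was sequenced from frozen pancreatic tumors, taken whole, of KPC mice, an engineered model of pancreatic ductal adenocarcinoma. The 5 tumors labelled Scrib null (genotype written as KPF/+CSF/F; tumors 7, 14, 15, 18 and 23) were set against the 4 labelled Scrib WT (KPF/+C; tumors 2, 3, 6 and 9), so both groups carry the KPC alleles and the genotypes differ by the Scrib alleles. Scrib encodes a scaffold protein of apical-basal polarity. The labels give no age, do not spell out the letters of the genotype, do not name the Cre driver or the cells in which Scrib was deleted, and leave unstated whether any mouse gave more than 1 tumor, so a p-value here reflects tumor-to-tumor spread alone, which may be technical. A whole tumor also holds stromal and immune cells, and fewer cells of a type cannot be told apart from less RNA per cell.

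MHC class I molecules show peptides from inside the cell to CD8+ T cells. The proteasome cuts proteins into peptides, the TAP transporter carries the peptides into the endoplasmic reticulum, and tapasin holds the empty heavy chain and beta-2-microglobulin at the transporter until a peptide is bound. Interferon gamma induces the whole route, and within the proteasome it replaces the constitutive catalytic subunits with the immunoproteasome subunits. Nlrc5 is the transactivator that acts on class I promoters through the factors bound at their X and Y boxes. Loss of class I display is a known way for tumor cells to avoid CD8+ T cells, and pancreatic tumors are known for low class I display.

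RefSeq promoter windows, from 250 bases before to 50 bases after a start site on GRCm38.p6, were matched for 8 of 10 members, in 9 windows. Windows for Tap2 and Nlrc5 were not matched. The stretches upstream of H2-K1 and B2m are shown because they carry the boxes through which the heavy chain and its light chain are known to be controlled together. Capitals mark matches on either strand to TGACG (the X2 core), ATTGG (the Y core), AANNGAAA (letters of an interferon regulatory factor site) and, in H2-K1, GGGANTCCC (the NF-kB letters of enhancer A). The H2-K1 stretch is chr17:34000348-34000527 on the minus strand, and the B2m stretch is chr2:122147506-122147685 on the plus strand, each 180 bases long.
H2-K1: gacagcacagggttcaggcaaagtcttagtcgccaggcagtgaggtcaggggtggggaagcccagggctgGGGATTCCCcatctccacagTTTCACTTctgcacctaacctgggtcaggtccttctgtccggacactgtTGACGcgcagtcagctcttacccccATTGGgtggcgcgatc
B2m: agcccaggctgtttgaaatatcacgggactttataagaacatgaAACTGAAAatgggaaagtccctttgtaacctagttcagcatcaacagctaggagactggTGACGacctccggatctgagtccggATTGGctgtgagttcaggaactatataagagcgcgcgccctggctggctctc

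In both genes the X2 core lay upstream of the Y core, 41 bases before the GENCODE M21 start of H2-K1 and 77 bases before that of B2m. The H2-K1 stretch was identical to its best ungapped match in the H2-D1 window at 89.4% of 180 bases. The adjoining NF-kB and interferon regulatory factor letters are shown for both heavy chains, at chr17:34000430-34000457 on the minus strand for H2-K1 and at chr17:35262924-35262951 on the plus strand for H2-D1, where they lie in the first exon of a longer GENCODE M21 transcript.
H2-K1 enhancer site: GGGATTCCCcatctccacagTTTCACTT
H2-D1 enhancer site: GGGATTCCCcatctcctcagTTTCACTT

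The sites differed by 1 base in 28, A17T, counted from 1 at the 5′ end with the H2-K1 base first, in the spacer between the capitals. Of the 9 member windows, 3 held GGGANTCCC, which 0.8% of all 32851 windows held, and these were both windows of H2-K1 and that of H2-D1. TGACG and ATTGG stood together in 6 member windows (H2-K1 in both windows, H2-D1, B2m, Tap1 and Psmb9) and in 7.7% of all windows. These windows are not independent, since those of Tap1 and Psmb9 share 275 bases and both windows of H2-K1 share 286. Taken singly, TGACG was in 20.8%, ATTGG in 37.4% and AANNGAAA in 23.9% of all windows, with AANNGAAA in 4 member windows. The Psmb8 and Psmb10 windows held none of the 4 motifs, and the Tapbp window held the Y core only. A match is a string of letters and not a site shown to be bound.

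Library depth ran from 10145830 to 27596832 estimated counts per tumor. Null 7 was the most extreme tumor on the first principal component and WT 3 on the second (29.6% and 26.4% of the variance), and null 7, null 18 and WT 3 had Y-linked transcripts. Scrib itself did not separate the labels: it had 60.3 ± 24.6 CPM (read counts scaled to a common library size; SD, n = 5) in null tumors and 70.5 ± 21.4 CPM (SD, n = 4) in WT tumors, with an edgeR adjusted p = 0.712. A count over the whole gene does not show which exons were lost. In edgeR's quasi-likelihood test, 2 of 16169 genes passed an adjusted p of 0.05 in either direction, or 0.0124%.

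With every tumor kept, the members divided into the 3 immunoproteasome subunits, which had the largest differences between the groups, and 7 other genes with smaller ones. The means of the 3 subunits were lower in null tumors. None of the 10 passed the adjusted threshold, against 0.0124% of all genes tested. All 10 log2 fold changes (null over WT) were below 0, as were 52.2% of all genes, and the median was -0.41, against -0.035 over all genes. At an unadjusted p under 0.05, 3 of 10 were lower, where 10.0% of all genes were lower and 7.64% higher. In 2 of 10, Psmb8 and Psmb9, every null tumor lay below every WT tumor, as it did in 3.49% of all genes; in 0 of 10 did every null tumor lie above, as in 3.42% of all genes. DESeq2, which made more false calls than edgeR on simulated data, called those 2 members, at adjusted p = 0.0276 and 0.0279, where it called 2.24% of genes lower and 1.15% higher.

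**Figure D1:**
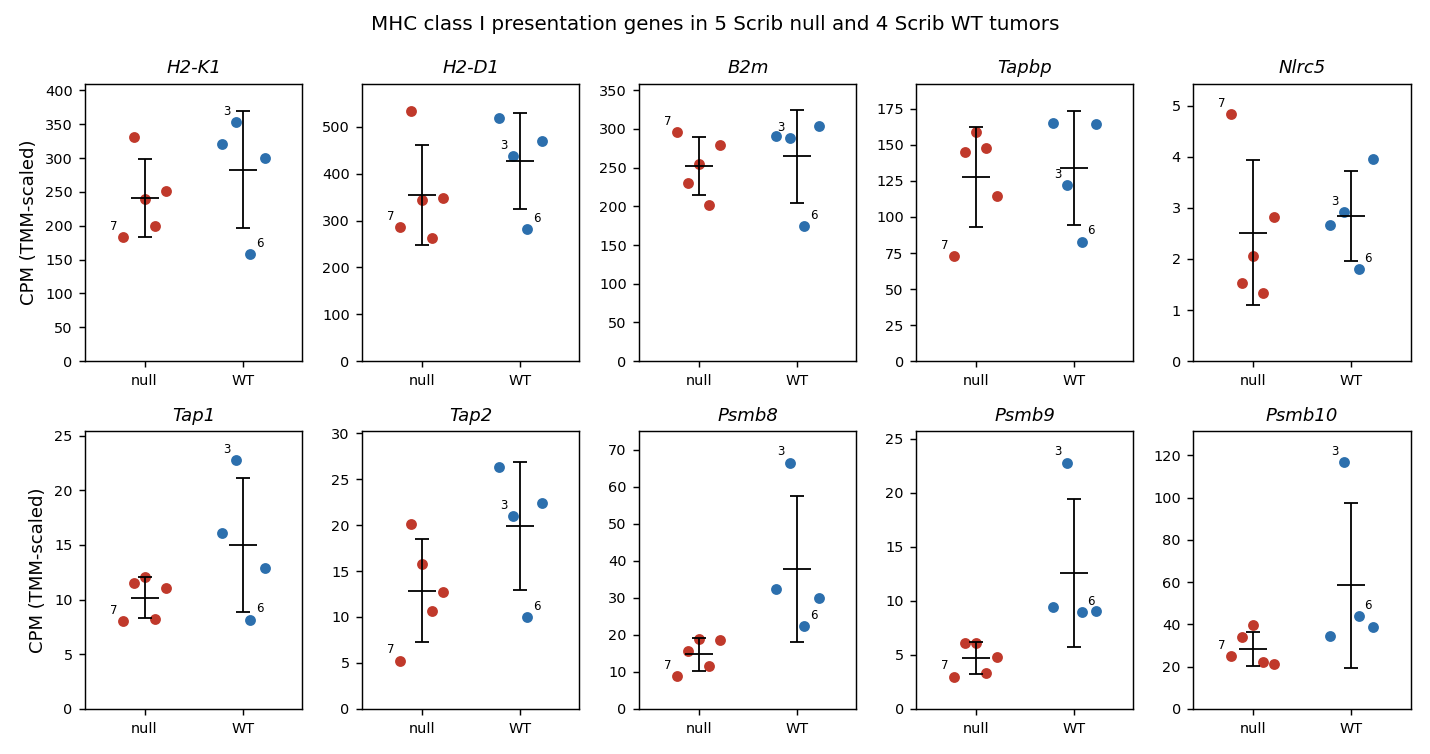
CPM on TMM-scaled libraries (vertical axis, from 0) of each member in each tumor, with null tumors in red and WT tumors in blue; the bar and whiskers are the mean and SD of the group, and small numbers mark tumors null 7, WT 3 and WT 6. Psmb8 and Psmb9 are the panels in which the groups do not overlap, and WT 3 stands at the top of both.

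The immunoproteasome subunits are the catalytic subunits that interferon gamma induces. Psmb8 (LMP7; ENSMUSG00000024338, chromosome 17, 34197721 to 34201454, GRCm38) is the chymotrypsin-like subunit that takes the place of Psmb5. It had 8.93, 15.6, 18.9, 11.6 and 18.5 CPM in null tumors 7, 14, 15, 18 and 23, against 32.4, 66.5, 22.4 and 29.9 CPM in WT tumors 2, 3, 6 and 9. The groups did not overlap, with a gap between null 15 and WT 6. The means were 14.7 ± 4.34 CPM (SD, n = 5) in null tumors and 37.8 ± 19.6 CPM (SD, n = 4) in WT tumors. The log2 fold change was -1.36 (SE 0.35; 95% confidence interval -2.13 to -0.59), a fold of 0.389, at an edgeR adjusted p = 0.201. The exact two-sided permutation p was 0.00794, which is the smallest that 126 splits of 5 against 4 tumors allow.

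Psmb9 (LMP2; ENSMUSG00000096727, chromosome 17, 34181987 to 34187764) takes the place of Psmb6. It had 2.98, 6.05, 6.13, 3.35 and 4.84 CPM in null tumors 7, 14, 15, 18 and 23, against 9.46, 22.8, 8.97 and 9.07 CPM in WT tumors 2, 3, 6 and 9. Again no null tumor reached the lowest WT tumor, and WT 3 stood far above the other WT tumors. The log2 fold change was -1.43 (SE 0.39; 95% confidence interval -2.29 to -0.56), a fold of 0.372, at an edgeR adjusted p = 0.201 and an exact permutation p of 0.00794. Psmb9 rested on 59 to 265 estimated counts per tumor.

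Psmb10 (MECL-1; ENSMUSG00000031897, chromosome 8, 105935735 to 105938444) takes the place of Psmb7. It had 25.1, 33.8, 39.7, 22.2 and 21.4 CPM in null tumors 7, 14, 15, 18 and 23, against 34.3, 117, 44.1 and 38.7 CPM in WT tumors 2, 3, 6 and 9. The groups overlapped, since null 15 lay above WT 2 and WT 9. The log2 fold change was -1.04 (SE 0.38; 95% confidence interval -1.87 to -0.21), at an edgeR adjusted p = 0.233 and an exact permutation p of 0.0476.

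Of the 9 tumors, WT 3 moved these differences most when left out. Without it, the log2 fold changes were -0.90 for Psmb8, -0.93 for Psmb9 and -0.42 for Psmb10, with edgeR adjusted p = 0.330, 0.342 and 0.5004. Without both WT 3 and null 7 they were -0.77, -0.81 and -0.38. Psmb10 then no longer stood apart from the other members. Without WT 3, Tap2 was at -0.56, farther from 0 than Psmb10, and without both tumors Nlrc5 was, at -0.50. The core proteasome outside the catalytic subunits was also high in WT 3: the mean log2 CPM of 12 such subunits was 6.86 to 7.26 in null tumors and 8.46 in WT 3, against 6.93 to 7.79 in the other WT tumors. The part of that level in the result was not tested.

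Each immunoproteasome subunit was next divided by the constitutive subunit it replaces, within each tumor, which removes the library scaling. Psmb5, Psmb6 and Psmb7 had log2 fold changes of -0.61, -0.51 and -0.36 (edgeR adjusted p = 0.338, 0.419 and 0.431), and of -0.37, -0.08 and -0.09 without WT 3. The log2 ratio of Psmb9 over Psmb6 was -5.41, -4.41, -5.21, -5.19 and -4.90 in null tumors 7, 14, 15, 18 and 23, against -3.74, -4.03, -4.54 and -4.11 in WT tumors 2, 3, 6 and 9. The groups overlapped only through null 14, which lay above WT 6. The mean difference was -0.92 (exact two-sided permutation p = 0.0238, 0.0476 adjusted over the 3 ratios), so the ratio was lower in null tumors. With 1 tumor left out in turn the difference ran from -1.07 to -0.80. It passed without null 14 (adjusted exact permutation p = 0.0429) or WT 6 (0.0357) and missed the threshold without any of the other 7 (0.0804 or 0.0857). The smaller groups also make the exact test coarser, with a smallest possible permutation p of 0.0179 or 0.0286, against 0.00794 with all 9 tumors. A missed threshold alone therefore does not show a smaller difference.

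The log2 ratio of Psmb10 over Psmb7 was -2.09 ± 0.25 (SD, n = 5) in null tumors and -1.52 ± 0.41 (SD, n = 4) in WT tumors, a difference of -0.57 (exact permutation p = 0.0318, adjusted 0.0476). It too passed without null 14 or WT 6 and missed the threshold without any other tumor, with -0.38 without WT 3. Without both WT 3 and null 7 the differences were -0.80 for Psmb9 over Psmb6 and -0.32 for Psmb10 over Psmb7. Neither passed the threshold, and the exact test is coarser in these smaller groups too. The log2 ratio of Psmb8 over Psmb5 averaged -3.12 ± 0.56 (SD, n = 5) in null tumors and -2.37 ± 0.81 (SD, n = 4) in WT tumors, a difference of -0.75 that did not pass (exact permutation p = 0.151). In WT 6 that ratio was -3.58, against -1.90 to -2.04 in the other WT tumors, and without WT 6 the difference was -1.16 (exact permutation, adjusted p = 0.0357).

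The peptide transporter is built from Tap1 and Tap2, the subunits of an ATP-driven pump. Tap1 (ENSMUSG00000037321, chromosome 17, 34187553 to 34197225) had 8.02, 11.5, 12.1, 8.27 and 11.1 CPM in null tumors 7, 14, 15, 18 and 23, against 16.1, 22.8, 8.16 and 12.9 CPM in WT tumors 2, 3, 6 and 9. Only WT 6 fell within the null range, and the log2 fold change was -0.55 (SE 0.32; edgeR adjusted p = 0.365), or -0.24 without WT 3. Tap2 (ENSMUSG00000024339, chromosome 17, 34203527 to 34216321) had 5.25, 20.1, 15.7, 10.6 and 12.7 CPM in null tumors 7, 14, 15, 18 and 23, against 26.3, 21.0, 10.0 and 22.4 CPM in WT tumors 2, 3, 6 and 9. The log2 fold change of Tap2 was -0.63 (SE 0.39; edgeR adjusted p = 0.407), with null 7 lowest of all, and -0.41 without null 7. Neither transporter gene passed the test.

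Tap1 and Psmb9 are read in opposite directions from neighbouring starts on chromosome 17. GENCODE M21 gives them 212 shared exonic bases. The labels do not say if strand information was kept, so reads of that stretch cannot be told apart between the pair. The same limit touches the other members with a partner on the opposite strand: Patl2 at B2m, Gm20496 at Tap2 and Psmb8, Gm15821 at Tap2, Gm19412 at Tapbp, 9330175E14Rik at Nlrc5 and Gm16156 at Psmb10. Zbtb22 overlaps Tapbp, and Mir7072 overlaps Nlrc5, on the same strand.

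Tapbp encodes tapasin, the chaperone that bridges the heavy chain and the transporter (ENSMUSG00000024308, chromosome 17, 33915899 to 33929292). It had 72.7, 145, 159, 148 and 115 CPM in null tumors 7, 14, 15, 18 and 23, against 165, 122, 82.9 and 165 CPM in WT tumors 2, 3, 6 and 9. The lowest tumors were null 7 and WT 6, each well below the rest of its group, and the log2 fold change was -0.06 (SE 0.29; edgeR adjusted p = 0.922).

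H2-K1 and H2-D1 are the classical heavy chains that hold the peptide. H2-K1 (ENSMUSG00000061232, chromosome 17, 33996017 to 34000347) had 183, 331, 239, 199.8 and 251 CPM in null tumors 7, 14, 15, 18 and 23, against 320.3, 353, 158 and 301 CPM in WT tumors 2, 3, 6 and 9. The highest and the lowest tumor were both WT, and the log2 fold change was -0.23 (SE 0.28; 95% confidence interval -0.85 to 0.38; edgeR adjusted p = 0.664). It was -0.07 without WT 3 and -0.43 without WT 6. H2-D1 (ENSMUSG00000073411, chromosome 17, 35262730 to 35267499) had 285, 534, 343, 263 and 348 CPM in null tumors 7, 14, 15, 18 and 23, against 518, 438, 282 and 470.2 CPM in WT tumors 2, 3, 6 and 9. Its highest tumor was null 14 and its log2 fold change was -0.27 (SE 0.27; edgeR adjusted p = 0.608), or -0.46 without null 14 and -0.16 without WT 2. The heavy chains share sequence: 22.5% of the 31-base words of H2-K1 and 27.5% of those of H2-D1 also occur in another gene, so their counts depend on how shared reads were assigned. For the other members that share was 2.9% or less.

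B2m encodes beta-2-microglobulin, the light chain of every class I molecule (ENSMUSG00000060802, chromosome 2, 122147686 to 122153083). It had 296, 231, 255, 202 and 279 CPM in null tumors 7, 14, 15, 18 and 23, against 291, 288, 175 and 303.5 CPM in WT tumors 2, 3, 6 and 9. With a log2 fold change of -0.07 (SE 0.23; 95% confidence interval -0.57 to 0.43; edgeR adjusted p = 0.893), it had the smallest standard error of the members.

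Nlrc5, the transactivator (ENSMUSG00000074151, chromosome 8, 94434356 to 94527272), was the scarcest member, with 28 to 96 estimated counts per tumor. It had 4.84, 1.53, 2.05, 1.34 and 2.82 CPM in null tumors 7, 14, 15, 18 and 23, against 2.68, 2.92, 1.81 and 3.95 CPM in WT tumors 2, 3, 6 and 9. Null 7 was the highest of all, although it was the lowest of the null tumors in 6 members. The log2 fold change was -0.17 (SE 0.46; edgeR adjusted p = 0.859), and it was -0.54 without null 7.

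**Figure D2:**
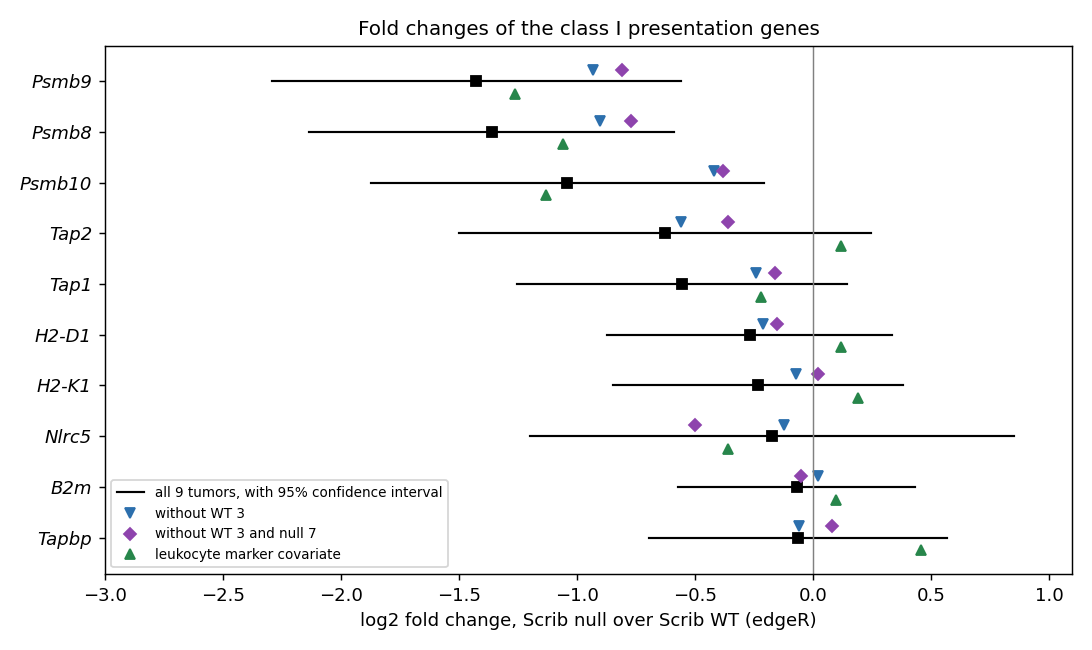
Log2 fold change of each member, Scrib null over Scrib WT, from edgeR (horizontal axis): squares and lines are the estimate from all 9 tumors and its 95% confidence interval, and coloured markers are the estimates without WT 3, without WT 3 and null 7, and with the leukocyte marker level as a covariate. The intervals of Psmb9, Psmb8 and Psmb10 end below 0, and the markers of these genes stay below 0 in each of the estimates drawn.

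Per kilobase of the principal transcript, the display molecules had the highest levels and the transactivator the lowest. B2m was at 293 ± 43.5 CPM per kb (SD, n = 5) in null tumors and 307.5 ± 69.9 CPM per kb (SD, n = 4) in WT tumors. H2-D1 followed at 169 ± 50.8 CPM per kb in null tumors and 203 ± 48.6 CPM per kb in WT tumors, and H2-K1 at 129 ± 30.7 and 151 ± 45.9 CPM per kb in null and WT tumors. The ranges of H2-D1 and H2-K1 overlapped, although H2-D1 was above H2-K1 in each of the 9 tumors. Averaged over all 9 tumors, Tapbp was at 45.0, Psmb10 at 31.9, Psmb8 at 15.3, Psmb9 at 6.05, Tap2 at 4.65, Tap1 at 3.15 and Nlrc5 at 0.351 CPM per kb. The order of Psmb9, Tap2 and Tap1 was not the same in every tumor, since Psmb9 was below Tap2 in null 14, null 15, null 18, null 23 and WT 2 and above it in null 7, WT 3, WT 6 and WT 9.

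The tumors varied in most members at once. Tumor null 7 was the lowest null tumor in 6 of 10 members, and WT 6 the lowest WT tumor in 9 of 10. WT 3 was the highest of all 9 tumors in 5 members. The steadiest ratio between members was that of the heavy chains, whose log2 ratio H2-K1 over H2-D1 had an SD of 0.17 over 9 tumors, followed by Psmb8 over Psmb9 at 0.20 and H2-K1 over Tap1 at 0.25. The least steady was Nlrc5 over Psmb9, at 1.02, with a log2 ratio of 0.69 in null 7 and of -0.76 or lower in every other tumor. Nlrc5 and Psmb9 had the lowest counts of the members (28 to 96 and 59 to 265 per tumor), while the heavy chains are abundant and share sequence. The part of counts and shared reads in this order was not tested.

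All 45 ratios of 1 member over another were then compared between the groups, a comparison chosen after the values had been seen. In 10 of the 45 the groups did not overlap, with an exact permutation p of 0.00794 each and 0.0357 adjusted over 45. These were H2-K1, H2-D1, B2m, Tapbp and Tap1, each over Psmb8 and over Psmb9, and every one was higher in null tumors. Psmb8 and Psmb9 already separated the same tumors on their own, so these ratios restate that separation and are not 10 separate results. Their adjusted p is as low as it is because all 10 share the smallest p. The share of other gene pairs without overlap was not computed. The log2 ratio of Tap1 over Psmb9 was 1.4, 0.91, 0.97, 1.28 and 1.18 in null tumors 7, 14, 15, 18 and 23, against 0.76, 0.00, -0.13 and 0.51 in WT tumors 2, 3, 6 and 9, a difference of 0.87. That of H2-K1 over Psmb8 averaged 4.05 ± 0.33 (SD, n = 5) in null tumors and 2.96 ± 0.44 (SD, n = 4) in WT tumors, a difference of 1.09. A ratio shows unequal change and not which gene of the pair changed. With any 1 tumor left out the groups still did not overlap in 10 to 12 ratios, and 0 ratios passed. The smallest exact permutation p that the smaller groups allow was 0.0179 or 0.0286. That is too large for so few ratios to pass after adjustment over 45, so the loss of the threshold could not show a loss of separation.

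**Figure D3:**
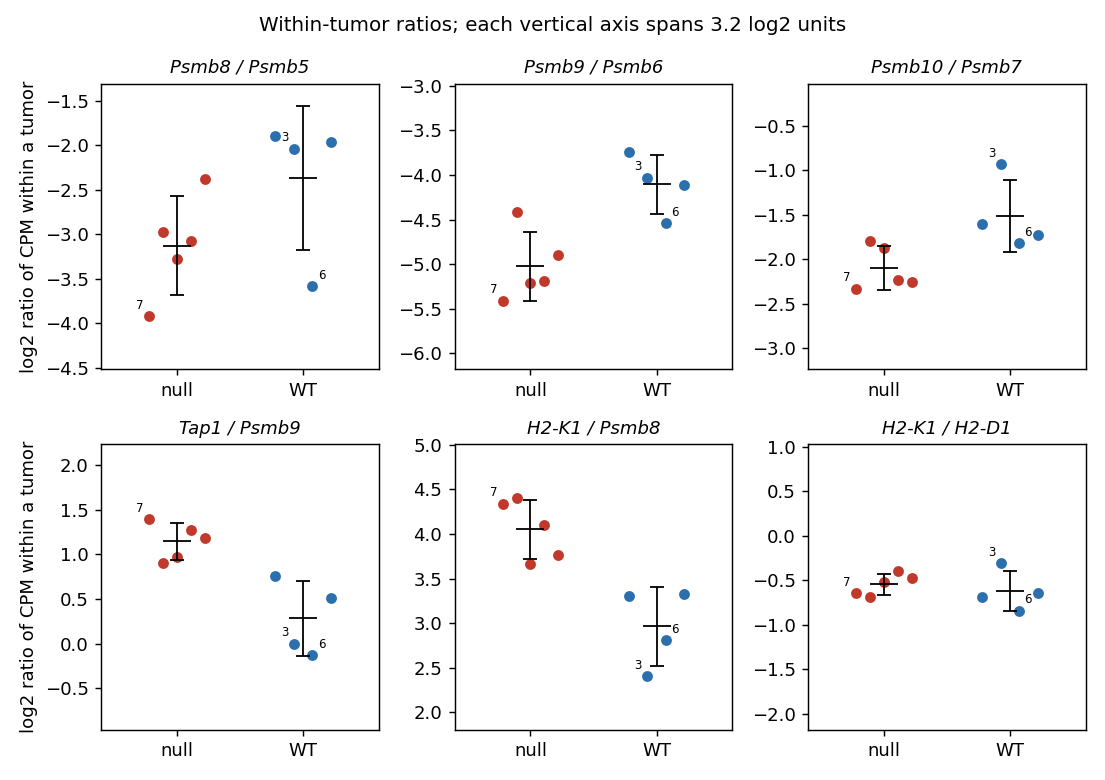
Log2 ratio of CPM within each tumor (vertical axis) for each immunoproteasome subunit over the constitutive subunit it replaces (top) and for selected pairs of members (bottom), with null tumors in red, WT tumors in blue, the mean and SD in black, and numbers for tumors null 7, WT 3 and WT 6. The groups do not overlap for Tap1 over Psmb9 and H2-K1 over Psmb8, while H2-K1 over H2-D1 stays within a narrow range in both groups.

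The other 9 members were compared with Nlrc5 across tumors. The log2 CPM of B2m correlated with that of Nlrc5 over 9 tumors with Pearson's r = 0.80 (exact permutation p = 0.0082, 0.0738 adjusted over the 9 relations) and Spearman's rho = 0.88 (exact permutation p = 0.00308, adjusted 0.0277). Without null 7 and null 18, the tumors farthest from the median of Nlrc5, r was 0.78 (exact permutation p = 0.0363, adjusted 0.327) and rho was 0.86 (exact permutation p = 0.0238, adjusted 0.214). On values centred within each genotype, r was 0.81 (exact permutation p = 0.00139, adjusted 0.0125). Both values of a tumor share its library and scaling. The relation passed the threshold by rank and, on centred values, by both measures, but not by Pearson's r on the values as they were, and by neither measure without null 7 and null 18. The Pearson correlations of the other 8 members with Nlrc5 lay between -0.31 (Tapbp) and 0.21 (Tap1), each with an adjusted exact permutation p of 0.833.

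The other class I heavy chains, nonclassical or class I-like, lay on the same side of 0 as the immunoproteasome, and none passed the adjusted threshold in edgeR. All 14 tested of 17 listed had a log2 fold change below 0 (52.2% of all genes), 8 of them at an unadjusted p under 0.05 (10.0% of all genes), with a median of -0.76. In 3 of them every null tumor lay below every WT tumor, as in 3.49% of all genes. H2-M3, which presents formylated peptides, had 4.41 ± 1.49 CPM (SD, n = 5) in null tumors and 10.3 ± 3.53 CPM (SD, n = 4) in WT tumors, with an edgeR adjusted p = 0.218. Fcgrt, the neonatal Fc receptor, which pairs with B2m and shows no peptides, had 35.7 ± 13.0 CPM in null tumors and 73.3 ± 24.2 CPM in WT tumors (edgeR adjusted p = 0.212). H2-T10 had a log2 fold change of -1.76 (SE 0.46; edgeR adjusted p = 0.201), on 368 estimated counts in the 9 tumors together. Its groups nearly touched, with 1.412 CPM in null 23 and 1.432 CPM in WT 9.

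The partners that trim and load peptides lay mostly on the other side of 0, and again none passed the adjusted threshold in edgeR. Of 17 tested, 13 had a log2 fold change above 0, where 52.2% of all genes were below 0, and the median was 0.27. An unadjusted p under 0.05 in that direction was found for 5 (7.64% of all genes). Ganab, a glucosidase that readies glycoproteins for calnexin, had 295.5 ± 24.9 CPM (SD, n = 5) in null tumors and 189 ± 40.5 CPM (SD, n = 4) in WT tumors, without overlap (edgeR adjusted p = 0.222). Ide, an insulin-degrading peptidase, had a log2 fold change of 0.77 (SE 0.23; edgeR adjusted p = 0.211), also without overlap. The chaperones Canx, Calr and Pdia3 had log2 fold changes of 0.34, 0.22 and -0.01, and the peptide trimmer Erap1 of 0.10 (edgeR adjusted p from 0.452 to 0.988). The proteasome activators divided: Psme3 had 0.50, Psme1 -0.20 and Psme2 -0.78 (edgeR adjusted p = 0.249, 0.759 and 0.292). Without WT 3, Psme1 was at 0.07 and Psme2 at -0.30.

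Genes that convey interferon gamma showed no common shift. Of 13 tested, 8 had a log2 fold change below 0, a share near the 52.2% of all genes, with a median of -0.08. An unadjusted p under 0.05 in that direction was found for 3 (10.0% of all genes). Ifngr1, the ligand-binding receptor chain, had 72.8, 155, 109, 140.1 and 116 CPM in null tumors 7, 14, 15, 18 and 23, against 212, 249.7, 174 and 216 CPM in WT tumors 2, 3, 6 and 9. The groups did not overlap, and the log2 fold change was -0.84 (SE 0.24; edgeR adjusted p = 0.207). The transcription factor Irf1 had a log2 fold change of -0.31 (SE 0.27; edgeR adjusted p = 0.557), or -0.05 without WT 3. Ifng itself had 2 estimated counts in the 9 tumors together.

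The factors bound at class I promoters were above 0 in 11 of 13, where 52.2% of all genes were below 0. Their median log2 fold change was 0.23, and 2 had an unadjusted p under 0.05 in that direction (7.64% of all genes). Rela, the NF-kB subunit, had a log2 fold change of 0.68 (SE 0.26; edgeR adjusted p = 0.237), Nfya, a subunit of the Y box factor, of 0.59 (SE 0.23; edgeR adjusted p = 0.248) and Rfx5, of the X box factor, of 0.76 (SE 0.39; edgeR adjusted p = 0.324). Interferon gamma targets outside the class I route were divided, with 13 of 21 below 0 (52.2% of all genes), a median of -0.16 and 2 at an unadjusted p under 0.05 in that direction, a share near the 10.0% of all genes. Among them, Cd274, which encodes the checkpoint ligand PD-L1, had a log2 fold change of -0.65 (SE 0.48; edgeR adjusted p = 0.478), or 0.03 without WT 3.

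Markers of immune cells lay on the same side of 0 as the members, and none passed the adjusted threshold in edgeR. All 14 leukocyte markers had a log2 fold change below 0 (52.2% of all genes), 7 at an unadjusted p under 0.05 (10.0% of all genes), with a median of -0.90. Their mean log2 CPM was 3.71 to 5.07 in null tumors and 4.43 to 6.03 in WT tumors, and none of the 14 was at 0 in any tumor, the lowest value being 2.67 CPM. All 14 macrophage markers were below 0 too, 11 at an unadjusted p under 0.05 (10.0% of all genes), with a level of 4.82 to 5.94 in null tumors and 5.78 to 6.94 in WT tumors. Ptprc, the pan-leukocyte marker CD45, had 23.5 ± 8.64 CPM (SD, n = 5) in null tumors and 41.7 ± 11.8 CPM (SD, n = 4) in WT tumors (edgeR adjusted p = 0.248). Class II presentation genes, which professional antigen-presenting cells express, were below 0 in 9 of 9 (52.2% of all genes), with a median of -1.21, and in 5 every null tumor lay below every WT tumor (3.49% of all genes). H2-Aa, a class II alpha chain, had 144 ± 47.1 CPM in null tumors and 379 ± 131 CPM in WT tumors (edgeR adjusted p = 0.197).

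**Figure D4:**
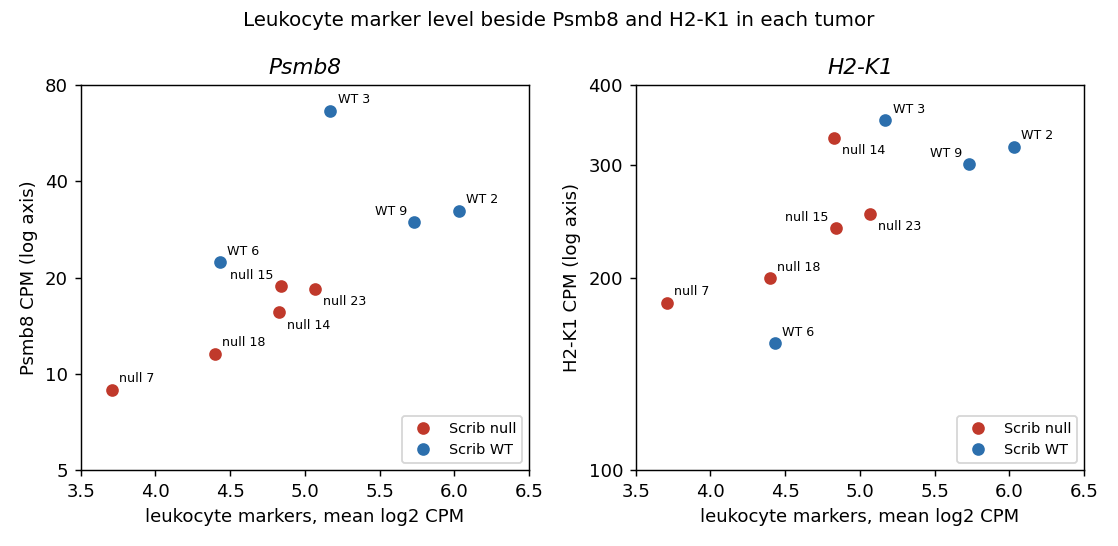
Psmb8 and H2-K1 in CPM (vertical log axes) against the mean log2 CPM of 14 leukocyte markers (horizontal axis) in each of the 9 tumors, with null tumors in red and WT tumors in blue. The leukocyte level runs from 3.71 to 5.07 in null tumors and from 4.43 to 6.03 in WT tumors; on the vertical axes the groups do not overlap for Psmb8 and do overlap for H2-K1.

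With the leukocyte level as a covariate in edgeR, the log2 fold changes were -1.06 for Psmb8, -1.26 for Psmb9 and -1.13 for Psmb10, with adjusted p = 0.231, 0.2302 and 0.255. The other members then lay between -0.36 (Nlrc5) and 0.46 (Tapbp), and H2-K1, H2-D1, B2m, Tap2 and Tapbp were above 0. Fibroblast markers were below 0 in 12 of 12 (52.2% of all genes), 2 of them at an unadjusted p under 0.05 (10.0% of all genes). Their level was 3.02 to 6.58 in null tumors and 5.81 to 7.48 in WT tumors. Endothelial markers were below 0 in 10 of 10 (52.2% of all genes), 3 of them at an unadjusted p under 0.05 (10.0% of all genes). Their level was 2.48 to 4.89 in null tumors and 4.74 to 5.68 in WT tumors, and null 7 was lowest in both lists. The part of the macrophage, fibroblast and endothelial levels in the result was not tested. The labelled pancreatic tumor carried epithelial markers in every tumor, at a mean log2 CPM of 8.72 to 9.31 in null tumors and 8.68 to 8.99 in WT tumors. Of these 14 markers, 9 were above 0 and 5 below, where 52.2% of all genes were below, with a median of 0.07. An unadjusted p under 0.05 was found for 2, both higher in null tumors (7.64% of all genes). These were Esrp1, at 1.02 (SE 0.28; edgeR adjusted p = 0.201), and Grhl2, at 0.93 (SE 0.31; edgeR adjusted p = 0.222).

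Most markers of the CD8+ T cells and natural killer cells that read class I molecules had few counts. Of 18 marker and receptor genes, 6 passed the filter on low counts. Of these 6, 4 had a log2 fold change below 0 (52.2% of all genes) and 2 above, with a median of -0.40. Only Cd3g had an unadjusted p under 0.05, and it was lower (10.0% of all genes). Cd3g was at -1.80 (SE 0.71; edgeR adjusted p = 0.248), on 101 estimated counts in the 9 tumors together. Eomes was at 2.00 (SE 0.96; edgeR adjusted p = 0.303). Cd8a had 30 estimated counts in the 9 tumors together and Gzmb, a granzyme, had 20. Klrc1, which encodes an inhibitory receptor for a nonclassical class I molecule, had 0.908, 24.98, 12.3, 20.4 and 2.01 CPM in null tumors 7, 14, 15, 18 and 23, against 1.72, 5.93, 6.00 and 9.63 CPM in WT tumors 2, 3, 6 and 9. Its groups overlapped widely (edgeR adjusted p = 0.522). Klrc1 had 1919 estimated counts in the 9 tumors together, against 25 for Klrd1 of the same list, and which cells carried the Klrc1 RNA was not tested.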

How the data were processed

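The authors deposited 1 table of estimated counts, 1 column per tumor, not normalized. Salmon 1.4.0, DESeq 2 and the builds GRCm38 and mm10 are named in the submitters' processing notes, without roles or an annotation release. Per the labels' protocols, RNA came from frozen tumors and libraries from an Illumina mRNA kit. Symbols and coordinates came from GENCODE M21, and promoters from RefSeq.

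Estimated counts were rounded. edgeR 4.0.16 (R 4.3.3; TMM, filterByExpr with minimum count 10, Benjamini-Hochberg threshold 0.05, no covariate) tested 16169 genes, so 0.0124% is a share of these. Log2 CPM used a prior count of 2. Single values were compared by exact two-sided permutation. Alternatives were DESeq2 1.42.0, limma-voom (limma 3.58.1), other scalings, filters, covariates and tumors left out. Precision was limited by variation among tumors (common biological coefficient of variation 0.494), and for Nlrc5 also by counting. The tests were tested on simulated data, where edgeR missed most of the changed genes and DESeq2 called more of them with more false calls.

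The members and gene lists were chosen with earlier results of these data known. Genes named were the members, Scrib, the 3 genes of smallest edgeR p in each list, a fixed set of pathway genes, and the 8 genes most like the members; not every one is described, and 1 is not reported here. Gzmb and Klrd1 were named after their values were seen.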

Additional observations from a re-analysis of the deposited data

Results flagged for a closer look

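Of 26 groups of 4 or 5 tumors tested, 4 held a tumor separated from the rest of its group by more than Dixon's 95% critical value for its size; chance gives about 1 in 20. All 4 were in WT tumors. B2m was lowest in WT 6, at 174.8 CPM, with a gap of 0.88 of the group's range. Psmb9 was highest in WT 3, at 22.77 CPM (0.96 of the range). Psmb10 was highest in WT 3, at 116.8 CPM (0.88 of the range). The log2 ratio of Psmb8 over Psmb5 was lowest in WT 6, at -3.577 (0.91 of the range).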

How the results depend on the processing

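The count of genes called was 2 in edgeR with all tumors, 7 with no filter, 625 with DESeq2, 6 with limma-voom, 1 with the sex covariate, 0 with the leukocyte covariate, 0 with the epithelial covariate, 0 without both WT 3 and null 7, and 0 to 1 with each tumor left out. The count of members called was 0, and 2 with DESeq2. Among the named genes outside the members, DESeq2 also called H2-T10, H2-M3, Ganab and the class II genes H2-Aa, H2-DMb1 and H2-Ab1. It further called the leukocyte marker Cd48, the macrophage markers Fcgr1 and Mrc1, the epithelial marker Esrp1 and the endothelial marker Egfl7. Psmb8, Psmb9, Psmb10 and Tap1 stayed below 0 in all 20 alternatives, Psmb8 between -1.55 (without WT 6) and -0.90 (without WT 3) with a tumor left out. The median of all genes was -0.129 with upper quartile scaling and -0.107 with DESeq2, against -0.035.

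With the leukocyte covariate the sign turned for H2-K1 (0.19), H2-D1 (0.12), B2m (0.10), Tap2 (0.12) and Tapbp (0.46). Without both WT 3 and null 7 it turned for H2-K1 (0.02), Tapbp (0.08), Erap1 (-0.01), Pdia3 (0.04), Psme1 (0.00) and Cd274 (0.07). With the epithelial covariate the members were at -1.72 (Psmb8), -1.83 (Psmb9), -1.29 (Psmb10), -0.81 (Tap1), -1.28 (Tap2), -0.38 (Tapbp), -0.55 (H2-K1), -0.57 (H2-D1), -0.07 (B2m) and -0.01 (Nlrc5), and 0 passed (lowest edgeR adjusted p = 0.0780). The sign turned for Pdia3 with no filter (0.03) and the sex covariate (0.04), for Erap1 with limma-voom (-0.00), and with the epithelial covariate for Scrib (0.00), Calr (-0.20) and Klrc1 (-0.21). With each tumor left out the log2 fold changes ran from -0.22 to 0.02 for B2m, -0.24 to 0.10 for Tapbp, -0.54 to 0.03 for Nlrc5, -0.02 to 0.23 for Erap1, -0.05 to 0.36 for Calr, -0.22 to 0.15 for Pdia3, -0.35 to 0.07 for Psme1 and -0.94 to 0.03 for Cd274. The cause of these turns was not tested.

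With each tumor left out, the ratio differences ran from -1.16 to -0.56 for Psmb8 over Psmb5, -1.07 to -0.80 for Psmb9 over Psmb6 and -0.67 to -0.38 for Psmb10 over Psmb7. The last 2 lost the threshold in 7 of 9 cases each, and without both tumors, at -0.80 and -0.32. The smaller groups also make the exact test of these ratios coarser. Of the 45 ratios, 0 passed with each tumor left out and 0 without both, where the smaller groups left too few splits for so few ratios to pass. The groups still did not overlap in 10 to 12 ratios with a tumor left out and in 10 without both. The correlation with Nlrc5 turned without null 7 and null 18 for Tap2 (0.40) and Tapbp (0.32), and on centred values for Psmb8 (-0.07), Psmb9 (-0.19) and Psmb10 (-0.08); by Pearson's r, 1 correlation, that of B2m, passed on centred values, against 0 on values not centred.

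Nlrc5 and the T cell genes were limited by depth, at 28 to 96 estimated counts per tumor for Nlrc5. No paired analysis was possible because the groups share no replicate numbers.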

Other observations

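The genes most like the members were ranked by Pearson's r, over 9 tumors, between their log2 CPM and the mean of the members' standardised log2 CPM, among 16159 other tested genes. The highest was Ebi3, a subunit of interleukin-27 and interleukin-35, at r = 0.974. Tnfsf14, the TNF family ligand LIGHT, followed at 0.964, then Ell, an elongation factor, at 0.964, Galr3, a galanin receptor, at 0.963, and Smim24 at 0.959. Gm7049, Gm47407 and 0610009E02Rik were each at 0.958, on only 292, 90 and 87 estimated counts in the 9 tumors together. As the highest of 16159 correlations over 9 tumors, these values were picked for their size and carry no p-value. All values share the tumors' libraries and scaling. The mean level of the members was lowest in null 18, at -0.94 SD units, null 7 at -0.86 and WT 6 at -0.79, and highest in WT 3 at 1.23.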
